A study of Homo sapiens with 6 samples.

Results

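The genes described here are 42 components, regulators and feedback targets of the NF-kB signalling pathway, measured as transcripts in A375 melanoma cells with and without RIPK4. Members were taken by exact gene name from a given list of pathway genes, and no threshold on their measured values entered the choice, although earlier results of these data were known when the list was made. Of the 42 names, 40 were rows of the expression table, which holds 20851 genes, and all 40 had enough counts to be tested. The list was read in 2 groups. The upstream group holds 29 genes (27 tested) that carry the signal, namely the ligand, receptors, adaptors, kinases and the transcription factor subunits, together with the cytoplasmic inhibitor NFKBIB. The feedback group holds the other 13 genes (13 tested), which NF-kB is known to induce or which restrain the pathway. The split is not exclusive, since some upstream genes also meet that description, such as the target NFKB2 and the restraining adaptor TRAF3.

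The study compared A375, an established human melanoma line, after CRISPR/Cas9 knockout of the kinase gene RIPK4 with the same line carrying a negative-control construct, in 3 libraries each. The control, A375 neg, received a nontargeting sgRNA and is labelled as a GFP control. The knockout, A375 RIPK4.KO, is a single clone (clone #1), so the effect of losing RIPK4 and the particularities of that clone cannot be told apart. Both groups were lentivirally engineered sublines grown in the same medium, with no cytokine or other NF-kB stimulus named in the labels, and whole-culture RNA was sequenced, so fewer cells of a type and less RNA per cell cannot be told apart either.

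NF-kB is a family of dimeric transcription factors that I-kappa-B proteins hold inactive in the cytoplasm. Receptors of the TNF, interleukin-1 and Toll-like families recruit TRAF, cIAP and MYD88 adaptors, which activate the IKK kinases. IKK marks I-kappa-B for destruction in the canonical branch, whereas in the noncanonical branch the kinase NIK (MAP3K14) drives processing of the NFKB2 precursor. Among the genes NF-kB then switches on are its own brakes, including NFKBIA and TNFAIP3, and melanoma cells often carry some NF-kB activity without added stimulus.

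Total counts per library ranged from 21882863 to 26694140, so that 3 counts corresponded to between 0.112 and 0.137 CPM (counts scaled to the library total). RIPK4 itself had normalized counts of 319, 339 and 383 in A375 neg, against 45.9, 53.2 and 61.8 in A375 RIPK4.KO, a fall of 84.5% (log2 fold change -2.69, SE 0.17, adjusted p = 1.01e-05). Over all 14443 genes tested with edgeR's quasi-likelihood test, 2403 had a Benjamini-Hochberg adjusted p under 0.05, and passing this threshold is what "passed", "rose" and "fell" mean below. Of 9 melanocyte-lineage markers 5 were listed, and MLANA, TYR, DCT and PRAME were not. The summed level of those 5, in CPM over TMM-scaled library sizes as for all marker sums here, was 387 to 418 in the controls, against 333 to 350.1 in the knockout. Of those 5, MITF (log2 fold change -0.44), S100B (-0.89) and S100A1 (-0.86) fell, and SOX10, which makes up most of the sum, did not pass (-0.20). Markers of other cell types moved in both directions. The summed leukocyte list (6 of 8 listed) was 44.7 to 50.8 CPM in the controls and 49.1 to 52.2 CPM in the knockout, mostly CD68, with PTPRC at 0 to 3 counts, and 1 of its genes, LYZ, fell (-2.62, from 36 to 38 counts to 0 to 13). The epithelial list (4 of 6 listed) was 71.6 to 75.2 against 53.6 to 66.3 CPM, and KRT14 fell (-1.75). The endothelial list (4 of 4 listed) was 12.2 to 16.5 against 17.9 to 19.7 CPM, PECAM1 fell (-2.12) and KDR rose (0.60). Of the fibroblast list (5 of 6 listed, 10.9 to 12.6 against 9.79 to 10.7 CPM) no gene passed. The part of these markers in the results below was not tested.

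Of the 40 members tested, 8 passed, against 16.6% of all genes tested. The members that fell were 5, the receptor genes TNFRSF1A and TNFRSF10B, the adaptor MYD88, the ubiquitin ligase BIRC3 and the nuclear I-kappa-B protein BCL3. The members that rose were 3, the adaptor TRAF2, the ubiquitin ligase BIRC2 and the TNF-induced gene TNFAIP2. Among all genes 8.24% fell and 8.40% rose. Past a fold change of 1.5 there was 1 member, TNFAIP2, against 9.04% of all genes, and that count was 0 without control replicate 2 or knockout replicate 3 and 2 without control replicate 1, where BCL3 (log2 fold change -0.59) was added. Without knockout replicate 1 it was 1, BCL3 (-0.63) and not TNFAIP2. The median log2 fold change was 0.04 over the members and -0.00466 over all genes tested. The median absolute log2 fold change was 0.155 and 0.181, respectively.

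For 20 of the 40 members the normalized counts of the 2 groups stood apart, against 36.5% of all genes tested, with every knockout library below every control library for 12 members, against 17.8% of all genes. At an unadjusted p under 0.05 there were 17 of the 40 members, against 30.0% of all genes (4333 of 14443). Split by group, 5 of 27 upstream members passed (2 rose and 3 fell), and 3 of 13 feedback members passed (1 rose and 2 fell). Among all genes tested 16.6% passed. The groups did not overlap for 11 upstream and 9 feedback members, 6 of the latter lower in the knockout. No difference between the upstream and feedback groups was tested.

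**Figure D1:**
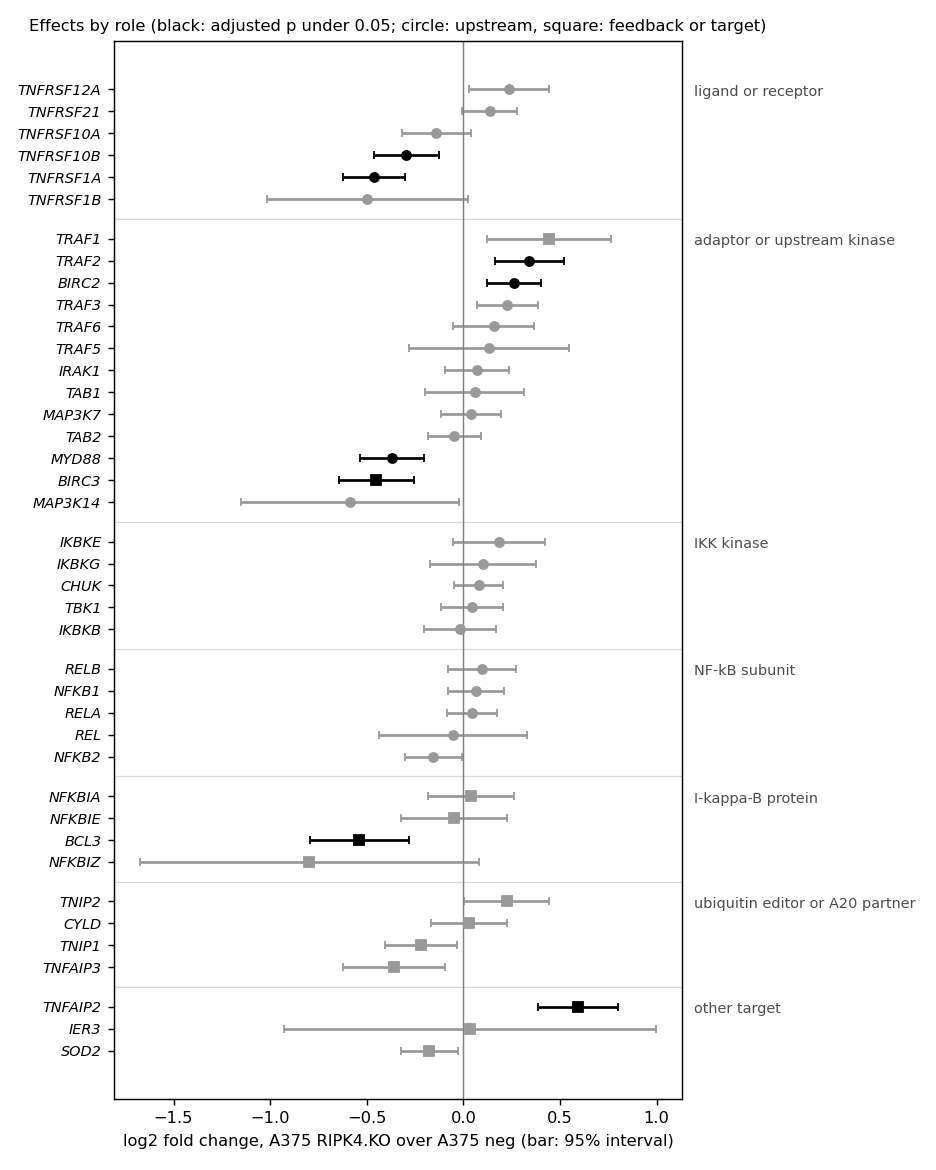
Each point is the log2 fold change of 1 tested member, A375 RIPK4.KO over A375 neg (3 libraries each), with its 95% interval, ordered by role. Circles are upstream and squares feedback members, and black marks the 8 that passed, which lie between -0.54 (BCL3) and 0.59 (TNFAIP2), whereas the widest intervals belong to IER3, NFKBIZ and MAP3K14.

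Of the death and TNF receptors, 2 of 6 tested fell and none rose, against 8.24% and 8.40% of all genes. TNFRSF1A encodes the main receptor for TNF. Its normalized counts were 3266, 3608 and 3704 in A375 neg, against 2429.8, 2700.3 and 2550.0 in A375 RIPK4.KO. Every knockout library lay below every control library, and the gene was 1.38-fold lower (log2 fold change -0.46, 95% interval -0.62 to -0.30, adjusted p = 0.00207). TNFRSF10B encodes a death receptor for TRAIL and was 1.23-fold lower, with 2801, 2697 and 2635 in the controls and 2252, 1995 and 2379.6 in the knockout (log2 fold change -0.30, SE 0.07, adjusted p = 0.0258). Its groups did not overlap, but it no longer passed without any one of the 3 control libraries (adjusted p = 0.105, 0.0904 and 0.0628 without replicates 1, 2 and 3, within 0.00619 to 0.105 over all settings).

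The other 4 receptors tested did not pass. TNFRSF10A, the second TRAIL death receptor, had 903, 881 and 879.6 in the controls and 783, 752 and 880.1 in the knockout (log2 fold change -0.14, interval -0.32 to 0.04). Those groups touched, since knockout replicate 3 reached the control level. TNFRSF1B, the second TNF receptor, was low throughout, at 34.4 to 61.7 normalized counts (log2 fold change -0.50, interval -1.02 to 0.02), with no overlap between groups. TNFRSF12A, the receptor for TWEAK and a noncanonical input, had 5959, 5773 and 5453 against 6050.0, 7716 and 6439 (log2 fold change 0.23, adjusted p = 0.122). All 3 knockout libraries lay above the controls, replicate 2 by most. TNFRSF21, death receptor 6, had 5376, 5687 and 5332 against 6227, 5659 and 6130.1 and overlapped, and without knockout replicate 2 it passed (log2 fold change 0.18, adjusted p = 0.0287, within 0.0287 to 0.398 over all settings). The ligand gene TNF was not a row of the table.

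Of the 13 adaptors and upstream kinases, 4 passed, 2 in each direction, against 16.6% of all genes. MYD88 couples interleukin-1 and Toll-like receptors to the IRAK kinases. It had 1064, 1027 and 1003 normalized counts in A375 neg, against 764, 858 and 772 in A375 RIPK4.KO. The groups stood clear of each other, with MYD88 1.29-fold lower (log2 fold change -0.37, SE 0.07, adjusted p = 0.0086). Its partner kinase IRAK1 had 24856, 25883 and 24583 against 25388, 28945 and 24759.5, overlapping groups with a log2 fold change of 0.07 (interval -0.10 to 0.24). Per library, the ratio of MYD88 to IRAK1 normalized counts was 0.0428, 0.0397 and 0.0408 in the controls and 0.0301, 0.0296 and 0.0312 in the knockout, a pair set side by side after its values were seen.

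TRAF2, the adaptor that brings cIAP ligases to TNF receptors, rose 1.27-fold. Its normalized counts were 988, 989 and 1015 in A375 neg, against 1156, 1389 and 1246 in the knockout (log2 fold change 0.34, SE 0.08, adjusted p = 0.0174). The 3 controls were close to each other and all knockout libraries lay above them. TRAF2 did not pass without control replicate 1, 2 or 3 (adjusted p = 0.0727, 0.0713 and 0.0574) or without knockout replicate 3 (adjusted p = 0.0503), within 0.00456 to 0.0727 over all settings. TRAF3, which together with TRAF2 and the cIAPs keeps NIK levels down, had 1333, 1275 and 1454 against 1574, 1532 and 1647. Its groups did not overlap and it just missed the threshold (log2 fold change 0.23, interval 0.07 to 0.39, adjusted p = 0.0570). It passed without knockout replicate 2 (adjusted p = 0.0234), with the replicate number as a block (0.0345), under a gene length correction (0.0226) and with both together (0.0183), within 0.0183 to 0.206 over all settings. TRAF1, itself an NF-kB target, was scarce, with 144, 143 and 159 against 209.9, 214 and 184 (log2 fold change 0.44, interval 0.12 to 0.77, adjusted p = 0.0640), again with no overlap.

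TRAF5 and TRAF6, adaptors of the TNF and interleukin-1 receptor families, did not pass. TRAF6 had 442, 473 and 430.3 against 498, 463 and 537 (log2 fold change 0.16, interval -0.05 to 0.36), and TRAF5 had 362, 310.4 and 274 against 418, 258 and 362 (0.13, interval -0.28 to 0.54). Both overlapped between groups. MAP3K7 (the kinase TAK1) and its binding partners TAB1 and TAB2 had log2 fold changes of 0.04, 0.06 and -0.05, with adjusted p of 0.752, 0.775 and 0.650. Intervals of these 3 genes ran from -0.20 to 0.31. MAP3K14, the noncanonical kinase NIK, had 338, 441 and 360.2 in the controls and 322, 149 and 287 in the knockout (log2 fold change -0.59, interval -1.15 to -0.02, adjusted p = 0.152). Replicate 2 of the knockout was much the lowest, and the value without it was -0.32 (adjusted p = 0.155, within 0.0778 to 0.371 over all settings).

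BIRC2 and BIRC3 encode the paralogous ubiquitin ligases cIAP1 and cIAP2 and are neighbours on chromosome 11 in RefSeq GRCh38.p14. They moved in opposite directions. BIRC3, which NF-kB induces, had 967, 1055 and 1185 normalized counts in A375 neg, against 772, 806 and 769 in A375 RIPK4.KO, 1.37-fold lower (log2 fold change -0.45, SE 0.09, adjusted p = 0.00674). BIRC2 had 2899, 2840.0 and 3115 against 3626, 3451 and 3539.5, 1.20-fold higher (log2 fold change 0.26, SE 0.06, adjusted p = 0.0176). Neither gene's groups overlapped. Per library, BIRC3 stood at 0.334, 0.371 and 0.380 of BIRC2 in the controls and at 0.213, 0.234 and 0.217 in the knockout, a log2 difference of -0.71 in a ratio formed after the values were seen. BIRC3 passed under every setting tried, and BIRC2 did not pass without control replicate 1 or 2 (adjusted p = 0.0838 and 0.0912) or without knockout replicate 3 (adjusted p = 0.0591), within 0.00232 to 0.0912 over all settings.

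**Figure D2:**
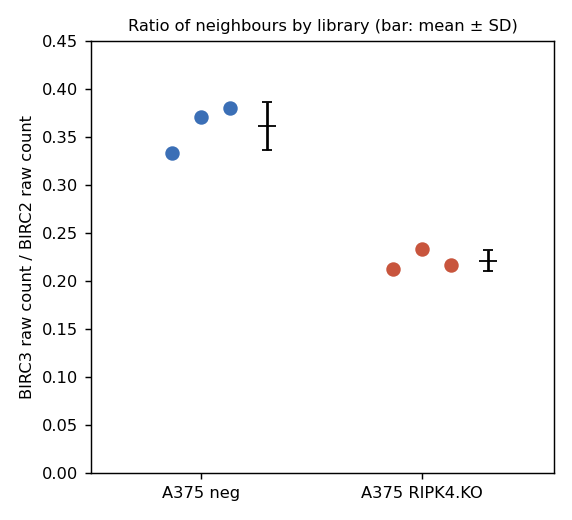
Raw count of BIRC3 divided by that of its neighbour BIRC2, with 1 point per library (replicates 1 to 3) and bars for mean ± SD of the 3 libraries. The ratio lies between 0.334 and 0.380 in A375 neg and between 0.213 and 0.234 in the knockout.

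None of the 5 IKK family genes passed in edgeR's quasi-likelihood test (16.6% of all genes did) or in DESeq2. Of these genes 0 had an unadjusted p under 0.05, against 30.0% of all genes. CHUK and IKBKB encode the catalytic subunits IKK-alpha and IKK-beta, and IKBKG the scaffold NEMO. CHUK had 2417, 2356 and 2320.3 against 2459, 2485 and 2543, groups that narrowly did not overlap, with a log2 fold change of 0.08 (interval -0.05 to 0.20). IKBKB had 806, 696 and 696 against 733, 706 and 735 (-0.02, interval -0.20 to 0.17), and this near-zero value turned to 0.022 under a gene length correction. IKBKG had 247, 280.0 and 239 against 267, 290.2 and 264 (0.10, interval -0.18 to 0.37). IKBKG has a near-identical pseudogene copy, so its counts are uncertain. The related kinases IKBKE and TBK1, which act mainly in interferon induction, had log2 fold changes of 0.18 (interval -0.05 to 0.42) and 0.04 (interval -0.12 to 0.21). Intervals of the 5 genes together ran from -0.20 to 0.42.

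None of the 5 subunit genes passed in edgeR's quasi-likelihood test (16.6% of all genes did) or in DESeq2. At an unadjusted p under 0.05 there was 1, NFKB2, against 30.0% of all genes. RELA, the main transactivating subunit, had 2766, 2811 and 2795 normalized counts in A375 neg, against 2848, 2989 and 2794 in the knockout (log2 fold change 0.04, interval -0.08 to 0.17). NFKB1, its most common partner, had 3538, 3249.9 and 3389 against 3432, 3762 and 3450.3 (0.06, interval -0.08 to 0.21). Both pairs of groups overlapped. RELB, the noncanonical partner, had 917, 836 and 827 against 924, 971 and 861 (0.09, interval -0.08 to 0.27). REL, the subunit best known from lymphocytes, had 333, 350.0 and 358 against 402, 244 and 357 (-0.05, interval -0.44 to 0.33). NFKB2, the noncanonical precursor and itself an NF-kB target, had 3589, 3807 and 3586 against 3080.2, 3458 and 3325. Those groups did not overlap, but the gene did not pass (log2 fold change -0.16, adjusted p = 0.144) unless knockout replicate 2 was left out (-0.19, adjusted p = 0.0388, within 0.0388 to 0.377 over all settings).

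Promoter sequences were examined for 35 members that had a window of 250 bases before to 50 bases after a transcript start in RefSeq (GRCh38.p14). The kappa-B consensus, the decamer that NF-kB dimers bind, was searched on both strands, counting overlapping matches. A match was present in a window of 14 of the 35 members, against 13.3% of 27305 genes with a window. Counted by window, 17 of 56 member windows held a match (30.4%), against 11.3% of 35116 windows. Among feedback members it was 7 of 11 (BCL3, BIRC3, CYLD, NFKBIA, NFKBIZ, TNFAIP3 and TNIP1), and among upstream members 7 of 24 (IRAK1, NFKB1, NFKB2, NFKBIB, REL, TAB2 and TRAF3). RELB, NFKBIE, IKBKB, TNFRSF10A, TNFRSF10B, TNFRSF12A and IER3 had no window. Of the 13 tested members with a match 2 passed, both lower (BCL3 and BIRC3), and of the 20 with a window and no match 5 passed (2 lower and 3 higher), against 16.6% of all genes passing and 8.24% passing lower. A match is a run of letters, and no binding was measured. The windows of the 2 members with a match that fell and of 4 members that did not pass are shown 5′ to 3′ on the gene's strand, with matches in capitals, to let the same motif be compared between genes that fell and genes that did not:
BCL3 (chr19:44748458-44748757, plus strand, 1 match): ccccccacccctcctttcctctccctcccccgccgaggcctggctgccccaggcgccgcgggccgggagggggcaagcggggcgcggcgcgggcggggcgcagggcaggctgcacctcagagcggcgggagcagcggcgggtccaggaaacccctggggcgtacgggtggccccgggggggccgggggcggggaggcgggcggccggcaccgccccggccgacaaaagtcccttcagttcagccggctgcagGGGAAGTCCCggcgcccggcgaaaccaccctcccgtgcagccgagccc
BIRC3 (chr11:102317234-102317533, plus strand, 2 matches): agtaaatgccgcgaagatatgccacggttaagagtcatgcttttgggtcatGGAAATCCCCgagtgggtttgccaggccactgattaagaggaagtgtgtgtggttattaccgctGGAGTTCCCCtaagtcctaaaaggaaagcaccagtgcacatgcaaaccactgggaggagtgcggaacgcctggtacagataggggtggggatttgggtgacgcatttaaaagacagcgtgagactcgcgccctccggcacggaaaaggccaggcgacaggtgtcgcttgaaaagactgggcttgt
TNFAIP3 (chr6:137867009-137867308, plus strand, 2 matches): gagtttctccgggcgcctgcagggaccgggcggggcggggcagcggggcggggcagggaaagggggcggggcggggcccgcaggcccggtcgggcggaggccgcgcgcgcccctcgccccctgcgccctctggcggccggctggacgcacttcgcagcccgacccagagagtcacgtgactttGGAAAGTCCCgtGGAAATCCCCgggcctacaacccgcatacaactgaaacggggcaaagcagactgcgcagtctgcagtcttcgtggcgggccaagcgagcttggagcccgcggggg
NFKBIA (chr14:35404700-35404999, minus strand, 1 match): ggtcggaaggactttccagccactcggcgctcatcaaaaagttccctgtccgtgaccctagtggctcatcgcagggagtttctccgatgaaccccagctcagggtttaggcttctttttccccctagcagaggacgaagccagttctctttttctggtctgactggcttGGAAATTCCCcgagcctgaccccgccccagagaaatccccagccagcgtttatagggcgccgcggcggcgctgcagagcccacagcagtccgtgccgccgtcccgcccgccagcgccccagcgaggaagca
TNIP1 (chr5:151080985-151081284, minus strand, 1 match): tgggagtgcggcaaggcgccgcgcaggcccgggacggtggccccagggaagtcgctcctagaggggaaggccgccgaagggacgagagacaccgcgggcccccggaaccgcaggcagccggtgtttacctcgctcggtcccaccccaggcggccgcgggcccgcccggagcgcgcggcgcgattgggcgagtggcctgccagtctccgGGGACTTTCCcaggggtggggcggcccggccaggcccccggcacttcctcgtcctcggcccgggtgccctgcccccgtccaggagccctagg
NFKB2 (chr10:102394328-102394627, plus strand, 3 matches, 2 of which overlap): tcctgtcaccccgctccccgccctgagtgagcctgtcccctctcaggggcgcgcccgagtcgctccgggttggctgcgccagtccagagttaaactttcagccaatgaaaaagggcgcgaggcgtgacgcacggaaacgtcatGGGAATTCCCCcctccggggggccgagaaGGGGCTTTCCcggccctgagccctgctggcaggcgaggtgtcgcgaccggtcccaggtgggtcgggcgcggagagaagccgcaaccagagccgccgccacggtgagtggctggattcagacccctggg

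In the printed windows the matches of BIRC3 begin 199 and 135 bases before the transcript start, those of TNFAIP3 67 and 55 bases before it, and those of NFKB2 107, 106 and 78 bases before it. The match of NFKBIA begins 81 and that of TNIP1 42 bases before the start, and the match of BCL3 lies within the first transcribed bases. Of the printed members that did not pass, only NFKBIA (log2 fold change 0.04) overlapped between groups. TNFAIP3 (-0.36), TNIP1 (-0.22) and NFKB2 (-0.16) had every knockout library below every control library. Over all 13 tested members with a match, 8 had a log2 fold change below 0 and the median was -0.05. Of the 20 without a match 5 were below 0, with a median of 0.09, and of all genes tested 7324 of 14443 were below 0. The difference between members with and without a match was not tested, and the intervals of REL, TAB2 and NFKBIZ, all counted as below 0, include 0. The tested members with a match that are not shown are NFKBIZ (-0.80), REL (-0.05), TAB2 (-0.05), CYLD (0.03), NFKB1 (0.06), IRAK1 (0.07) and TRAF3 (0.23).

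Of the I-kappa-B family, 1 of 4 tested genes passed, against 16.6% of all genes, 8.24% of which passed lower. BCL3 is an atypical, nuclear member that works with NFKB1 and NFKB2 homodimers as a coactivator. It had 439.9, 471 and 509 normalized counts in A375 neg, against 368, 301 and 308 in A375 RIPK4.KO. No knockout library reached the lowest control, and BCL3 was 1.45-fold lower (log2 fold change -0.54, interval -0.79 to -0.28, adjusted p = 0.0109). Without control replicate 3 it just missed the threshold (adjusted p = 0.0537, within 0.00165 to 0.0537 over all settings). NFKBIA, the classical I-kappa-B and the best known feedback target, had 834, 930.4 and 1006 against 904, 1060.5 and 881. Its groups overlapped, with a log2 fold change of 0.04 (interval -0.18 to 0.26, adjusted p = 0.834). NFKBIE, a cytoplasmic inhibitor, had 396, 367 and 436 against 398, 429 and 334 (-0.05, interval -0.32 to 0.23).

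NFKBIZ, a nuclear family member that is itself induced by interleukin-1 and Toll-like receptor signals, had 236, 228 and 213 against 181, 47.0 and 161. All 3 knockout libraries lay below the controls and replicate 2 far below the others, so that the log2 fold change of -0.80 had an interval of -1.67 to 0.08 (adjusted p = 0.207). Without that library it was -0.39 (adjusted p = 0.102, within 0.0901 to 0.367 over all settings). NFKBIB, the remaining inhibitor, was not a row under its own name. A copy of it on an alternate scaffold had raw counts of 10, 71 and 8 against 9, 24 and 15, and no value for the gene was drawn from that copy.

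Of the A20 group, TNFAIP3 (A20 itself), CYLD, TNIP1 and TNIP2, none passed in edgeR's quasi-likelihood test (16.6% of all genes did) or in DESeq2. An unadjusted p under 0.05 was found for 3 of the 4, against 30.0% of all genes. TNFAIP3, a ubiquitin editor that ends the signal, had 270.0, 289 and 309.9 in A375 neg, against 221, 231 and 226 in A375 RIPK4.KO. The groups did not overlap (log2 fold change -0.36, interval -0.62 to -0.10, adjusted p = 0.0682). TNIP1, which binds A20 and ubiquitin chains, had 4419, 4703 and 4524 against 3732, 4407 and 3589 (-0.22, adjusted p = 0.109). Knockout replicate 2 was the closest to the controls, and without it TNIP1 passed (-0.31, adjusted p = 0.00189, within 0.00189 to 0.304 over all settings). TNIP2, a second A20 partner, lay on the other side, with 1048, 1128 and 1127 against 1236, 1478 and 1145 (0.22, adjusted p = 0.158), also without overlap. CYLD, a deubiquitinase, overlapped between groups, at 1012, 903 and 938 against 884, 1069 and 959 (0.03, interval -0.17 to 0.23).

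TNFAIP2, a gene first found as TNF-induced in endothelial cells and linked to membrane nanotubes, had the largest rise of the members. Its normalized counts were 488, 442 and 523 in A375 neg, against 741, 678 and 769.6 in A375 RIPK4.KO. Every knockout library was above every control, 1.51-fold higher on average (log2 fold change 0.59, interval 0.38 to 0.80, adjusted p = 0.00224). It passed under every setting tried, but its log2 fold change was under that of a 1.5-fold change without control replicate 2 (0.53), knockout replicate 1 (0.58) or knockout replicate 3 (0.55). SOD2, the mitochondrial superoxide dismutase, had 982, 937 and 949.7 against 844, 865 and 827, without overlap (-0.18, interval -0.33 to -0.03, adjusted p = 0.103). IER3, an early response gene, was near the lower limit of detection, with 12, 10 and 9 raw counts in the controls and 10, 8 and 11 in the knockout. Further copies of IER3 on alternate scaffolds had up to 9 raw counts per library, so its reads could be split between copies, and its log2 fold change of 0.04 had an interval of -0.93 to 1.0.

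**Figure D3:**
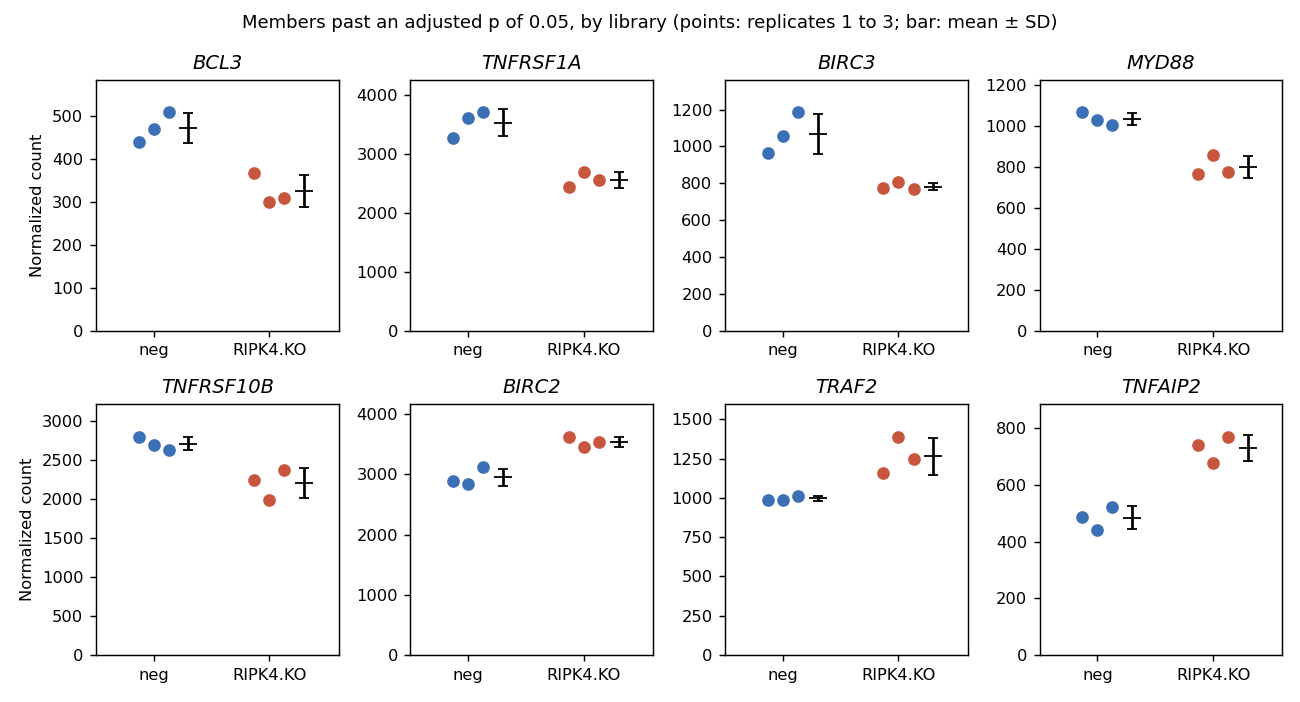
Normalized counts of the 8 members that passed, with 1 point per library (replicates 1 to 3) and bars for mean ± SD of the 3 libraries, on axes that start at 0. In each panel the A375 neg and A375 RIPK4.KO points do not overlap, BCL3, TNFRSF1A, BIRC3, MYD88 and TNFRSF10B being lower and BIRC2, TRAF2 and TNFAIP2 higher in the knockout.

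Levels were also compared between members per exon length, as RPKM, the mean normalized count of each group divided by summed exon length and by the mean TMM-scaled library size. The most abundant member was IRAK1, at 256 RPKM in the controls and 269 in the knockout. The receptors TNFRSF12A (126 and 149), TNFRSF21 (62.0 and 68.1) and TNFRSF1A (35.9 and 26.1) followed in the controls, while in the knockout BIRC2 (31.8), NFKB2 (29.9) and TNIP1 (27.5) stood above TNFRSF1A. Among subunits NFKB2 (33.3), NFKB1 (22.1) and RELA (20.8) were the most abundant in the controls, RELB stood at 11.6 and REL at 1.07. The feedback gene TNIP1 (32.0 RPKM in the controls) and NFKBIA (15.9) stood above TNFAIP3 (2.34), SOD2 (2.14), NFKBIZ (1.56) and TRAF1 (0.940). SOD2 had about as many counts as NFKBIA (means of 956 and 923 normalized counts in the controls), and its lower RPKM goes with a summed exon length of 18206 against 2373 bases. TNFRSF1B (0.615) and IER3 (0.298) were the lowest. Members that passed lay between 3.93 (TNFAIP2) and 35.9 RPKM (TNFRSF1A) in the controls.

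**Figure D4:**
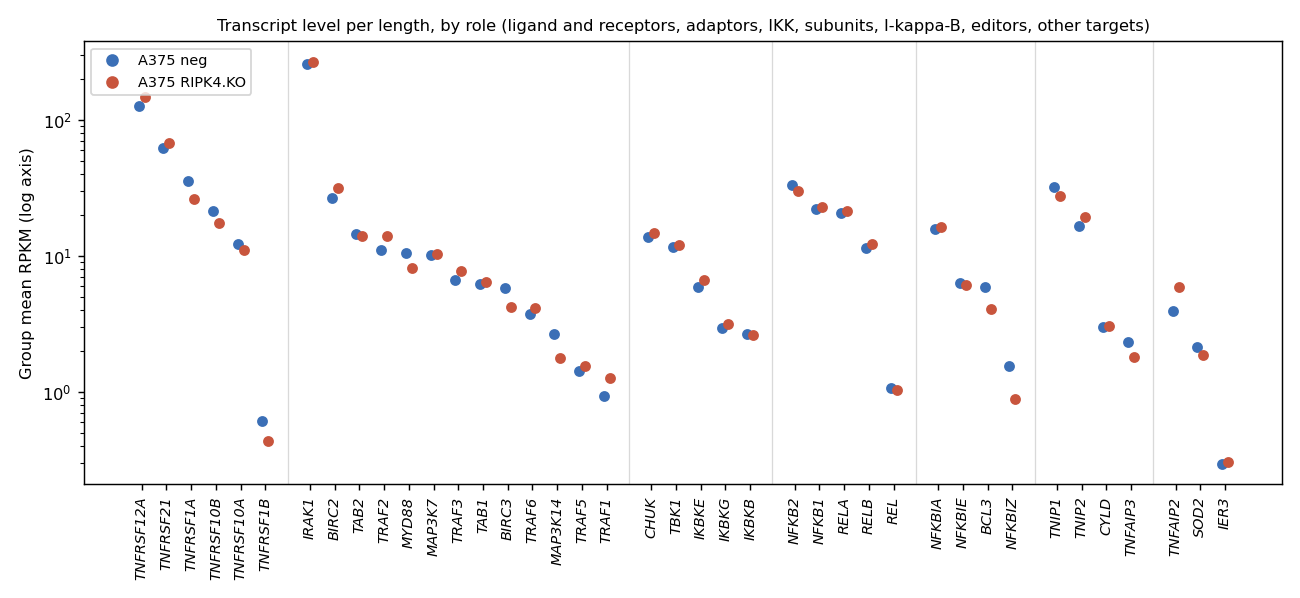
Group mean RPKM (log axis) of the 40 tested members in A375 neg and A375 RIPK4.KO (3 libraries each), ordered by role and then by control level. Levels span from 0.298 (IER3) to 256 RPKM (IRAK1) in the controls, and the difference between groups is small against the difference between genes.

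Replicate 2 of the knockout differed from replicates 1 and 3 in some members. NFKBIZ (-1.86), MAP3K14 (-1.03), REL (-0.63) and TRAF5 (-0.60) were more than 0.5 lower there on the log2 scale than the mean of the other 2 knockout libraries, 4 of 40 members against 11.2% of all genes. Over the 89.4% of tested genes with a known length, the same difference had a median of 0.14 in the 4308 genes of least summed exon length and of -0.11 in the 4304 of greatest, and its part in the member results was not tested. Left out in turn, knockout replicate 2 changed the number of members that passed from 8 to 12, the 8 included, while the share of all genes that passed went from 16.6% to 19.8%. Leaving out any one control library gave 5 members, with 10.3% to 11.1% of all genes.

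**Figure D5:**
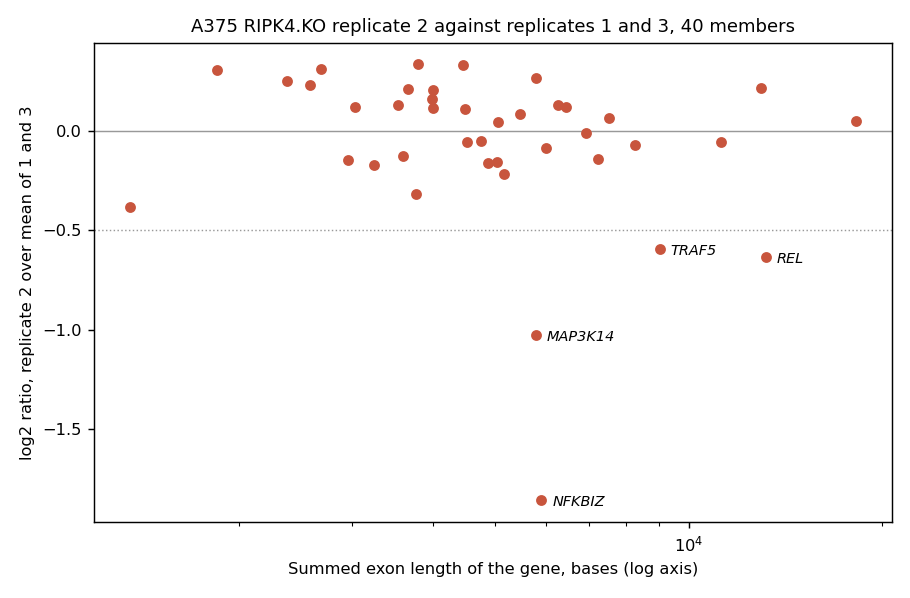
Log2 ratio of A375 RIPK4.KO replicate 2 to the mean of replicates 1 and 3 for each of the 40 tested members, against summed exon length (log axis). Most members lie near 0, and NFKBIZ, MAP3K14, REL and TRAF5 lie below the dotted line at -0.5.

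Other pathway genes were taken from a list of 73 receptors, ligands, adaptors and regulators outside the members, 60 of them tested. Of these 15 passed (25.0%), 2 higher and 13 lower, and 8 were past a fold change of 1.5. Among all genes tested 16.6% passed, 8.40% higher and 8.24% lower, and 9.04% were past a fold change of 1.5. The receptor genes NGFR (log2 fold change -3.03), TNFRSF19 (-1.25) and TNFRSF11A (-0.83), all of the TNF receptor family, fell, as did the cytokine genes IL1B (-1.12) and IL1A (-0.63) and the lipopolysaccharide receptor TLR4 (-0.67). IL1B had 519.9, 566 and 599 normalized counts in A375 neg, against 268, 276 and 234 in A375 RIPK4.KO. TLR4, which like the interleukin-1 receptor signals through MYD88, had 3174, 3363 and 3472 against 2032, 2149 and 2105. RNF31, the catalytic subunit of the linear ubiquitin ligase, was higher (1.96, adjusted p = 0.0497), but unevenly, with 26.0, 25.8 and 26.5 against 26.2, 86.6 and 192, so that its groups overlapped.

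Of another list of 48 NF-kB target genes outside the members, 44 were tested and 23 passed (52.3%), 7 higher and 16 lower, 13 of them past a fold change of 1.5. The chemokine genes CXCL3 (log2 fold change -2.34) and CXCL2 (-1.35), the cytokine IL6 (-1.99), the prostaglandin synthase PTGS2 (-1.81), the protease MMP9 (-1.66) and the stress transcription factor ATF3 (-1.23) fell. IL6 had 41.0, 52.5 and 33.2 normalized counts against 10.9, 12.5 and 8.11, and CXCL3 had 31.0, 55.3 and 73.9 against 10.9, 8.35 and 12.2. In the other direction the chemokine CCL2 (2.07), the kinase NUAK2 (1.18) and the phosphatase DUSP5 (0.66) rose, CCL2 from 277, 342 and 435 to 1307, 1759.8 and 1359.6. These lists are described beside the 8 of 40 members that passed and the 16.6% of all genes. Both outside lists were made with earlier results of these data known, so their shares are not an independent result. Of all genes 8.40% passed higher and 8.24% lower, and 9.04% were past a fold change of 1.5. Differences between the lists were not tested, and many of these genes also answer to other transcription factors.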

How the data were processed

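RNA of 3 A375 neg and 3 A375 RIPK4.KO libraries, labelled replicates 1 to 3, was poly(A)-enriched and sequenced with a strand-specific paired-end kit. The submitters' processing notes name cutadapt, FastQC, HISAT2, HTSeq, DESeq2 and build GRCh38.p13, with versions not given in the sources used here. The authors deposited 1 table of raw counts per gene for each library. The deposited table also holds the authors' normalized counts (a signal, counts divided by a size factor), and the fold changes, log2 fold changes, Wald score, standard error and p-values of the authors' own comparison, and none of these was used. The study describes the 3 libraries of a group as independent biological replicates, and p-values measure the spread between these libraries of 1 clone and 1 control subline.

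Raw counts were tested with the functions glmQLFit and glmQLFTest of edgeR 4.0.16, run in R 4.3.3 after filterByExpr and TMM scaling and without covariates, with Benjamini-Hochberg adjustment over all 14443 genes that kept enough counts, and intervals at 95%. Normalized counts are raw counts divided by the relative TMM-scaled library size. Exon lengths for RPKM came from GENCODE v29 by gene symbol. Alternatives were DESeq2 1.42.0 in place of edgeR, its size factors in edgeR, no filter, a mean of at least 50 counts, replicate number as a block, a gene length correction, both together, leaving out each library, and a fold change of at least 1.5. The member and gene lists, and the rule by which every member and the up to 6 largest changes in each direction of the outside lists were named, were chosen with earlier results of these data known. An outside gene that this rule would name is not reported here. Scripts were tested on simulated data. Promoter windows came from RefSeq (GRCh38.p14), and figures were drawn with matplotlib 3.10.9 in Python 3.11.15.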

Additional observations from a re-analysis of the deposited data

How the results depend on the processing

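The number of members that passed stayed at 8 under DESeq2, DESeq2 size factors, no filter on low counts and a mean of at least 50 counts. The last setting tested 38 members. The share of all genes that passed, 16.6% in the main fit, was 12.6%, 16.7%, 10.8% and 18.0% under these settings, respectively. Under the gene length correction 9 members passed, TRAF3 in addition, and 19.3% of all genes did. TNFRSF1A, BIRC3, MYD88 and TNFAIP2 passed under every one of these settings and without any one library. With a fold change of at least 1.5 required as well, 1 member, 0 upstream members, 1 feedback member, 8 other pathway genes, 13 other target genes and 1306 of all genes remained. When each library was dropped in turn, 5 to 12 members passed (5 without control replicate 1, 2 or 3, and 8, 12 and 6 without knockout replicates 1, 2 and 3), 2 to 8 upstream members, 2 to 4 feedback members, 8 to 17 other pathway genes, 17 to 26 other target genes and 1526 to 2952 of all genes. No member that passed changed direction in any setting. IKBKB, at -0.02 on the log2 scale, turned to 0.022 under the gene length correction and to 0.0244 with the replicate block added. Without 1 library the log2 fold change of 10 members that did not pass changed sign, in ranges of -0.205 to 0.132 for REL, -0.0457 to 0.105 for NFKBIA, -0.124 to 0.0511 for NFKBIE, -0.0506 to 0.0582 for IKBKB, -0.0127 to 0.0848 for TBK1, -0.023 to 0.309 for TRAF5, -0.0218 to 0.0885 for MAP3K7, -0.0567 to 0.162 for TAB1, -0.0406 to 0.0946 for CYLD and -0.0595 to 0.191 for IER3. Summing the copies of IER3, an alternative chosen after seeing the data, left it short of the threshold and the count of members at 8. A mean of at least 50 counts left IER3 and TNFRSF1B untested. For the 21 other pathway and target genes past a fold change of 1.5, 247 of 270 values kept direction and call, 23 kept direction but not the adjusted p, and 0 changed direction. The cause of these shifts was not tested.

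Deviations of same-numbered libraries correlated little (r = 0.0823, 0.0357 and -0.0119 for replicates 1, 2 and 3). With 3 libraries per group these values cannot decide whether the numbers pair the libraries. With the replicate number as a block 9 members passed, TRAF3 in addition, and the same 9 with the gene length correction added, while 17.6% and 20.3% of all genes passed. Control replicates 1 and 2 correlated best with the knockout library of their own number and control replicate 3 with knockout replicate 2, which is a hint from the data and not the design.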
